A study of Mus musculus with 225 samples.

Results

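*Lhx2*, *Lhx9*, *Lmx1b* and *Dach1* encode transcription regulators of the developing limb, and were taken as the 4 rows with these gene names among the 23165 genes of the raw count table. All 4 were also among the 10948 genes of the normalized table. Their levels and co-expression were examined in single cells from the autopod, the hand-forming end of the limb, and from the zeugopod, the segment of the future forearm. The embryos were heterozygous for *Hoxd11::GFP*, a tau-GFP knock-in placed in frame with the *Hoxd11* coding sequence, on a mixed C57Bl6CBAF1 background, and forelimbs were dissected at E12.5. The authors retained 199 of the captured cells. The retained autopod cells were 59 from sequencing run NXT0072 and 17 from run NXT0143, and the retained zeugopod cells were 58 from run NXT0142 and 65 from run NXT0143. All cells came from pooled forelimbs, 8 by one statement of the study, which gives the number of embryos in more than one way, and from the 20% of cells with the brightest GFP, so cells with dim or no GFP were not sampled. The labels name no embryo for a cell. Each tissue was therefore 1 pooled sample, cells were not used as replicates, and no p-value was computed.

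*Lhx2*, *Lhx9* and *Lmx1b* encode LIM-homeodomain factors, which bind DNA through a homeodomain and recruit cofactors such as Ldb1 through LIM domains. In the limb bud, *Lhx2* and *Lhx9* are known from distal mesenchyme, where they act in the exchange of FGF and Shh signals between ectoderm and mesenchyme. *Lmx1b* is switched on in dorsal mesenchyme by Wnt7a from the dorsal ectoderm and gives the limb its dorsal character. *Dach1* encodes a vertebrate relative of Drosophila Dachshund, a nuclear cofactor that is known from distal limb mesenchyme.

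The genes lie on 3 mouse chromosomes. In the GENCODE annotation of GRCm38, *Lhx2* (ENSMUSG00000000247) occupies chr2:38339281-38369733 on the plus strand, *Lmx1b* (ENSMUSG00000038765) chr2:33560965-33640511 on the minus strand, *Lhx9* (ENSMUSG00000019230) chr1:138825186-138848577 on the minus strand and *Dach1* (ENSMUSG00000055639) chr14:97786853-98169765 on the minus strand. The gene bodies of *Lhx2*, *Lmx1b* and *Dach1* overlap other annotated transcripts, of which the antisense RNAs Gm13584 and Gm27197 lie within *Lhx2*, and 0 bases of exon were shared. The promoters of *Lhx2*, *Lhx9* and *Dach1* are shown because these were the genes that differed between the tissues together. Each is the window from 250 bases before to 50 bases after the RefSeq transcription start (GRCm38.p6), 5′ to 3′ on the strand of the gene, with every ATTA or its reverse complement TAAT, the core letters bound by many homeodomains, in capitals.
*Lhx2* promoter, chr2:38339031-38339330 (+): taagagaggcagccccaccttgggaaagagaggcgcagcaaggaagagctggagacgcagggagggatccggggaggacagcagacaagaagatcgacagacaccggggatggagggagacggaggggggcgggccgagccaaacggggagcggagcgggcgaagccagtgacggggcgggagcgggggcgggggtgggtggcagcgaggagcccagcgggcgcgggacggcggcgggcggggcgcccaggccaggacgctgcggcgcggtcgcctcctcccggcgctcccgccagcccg
*Lhx9* promoter, chr1:138842395-138842694 (−): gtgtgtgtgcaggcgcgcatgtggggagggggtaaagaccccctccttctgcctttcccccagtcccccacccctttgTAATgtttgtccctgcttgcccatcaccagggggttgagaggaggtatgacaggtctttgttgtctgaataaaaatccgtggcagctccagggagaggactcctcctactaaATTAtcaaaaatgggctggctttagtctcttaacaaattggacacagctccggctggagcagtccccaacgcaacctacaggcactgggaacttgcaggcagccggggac
*Dach1* promoter, chr14:98169716-98170015 (−): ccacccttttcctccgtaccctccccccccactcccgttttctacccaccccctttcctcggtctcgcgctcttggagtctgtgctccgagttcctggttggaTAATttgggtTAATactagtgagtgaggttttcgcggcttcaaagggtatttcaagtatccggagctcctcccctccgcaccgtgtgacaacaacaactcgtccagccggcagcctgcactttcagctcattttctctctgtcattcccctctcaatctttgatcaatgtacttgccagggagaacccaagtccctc
The *Lhx9* window starts inside the longer GENCODE gene, and *Lhx2* has a further RefSeq start downstream with a window at chr2:38351058-38351357. The *Lhx9* and *Dach1* windows held 2 ATTA each, and both *Lhx2* windows and the *Lmx1b* window at chr2:33641049-33641348 held 0. ATTA was present in 58.03% of all 32851 promoter windows of the same length. On either strand, CAATAAA, letters found in Hox13 motifs, and CCGGAA, letters found in ETS motifs, were found in 0 of these windows, against 4.60% and 14.9% of all windows. The G and C content was 74.7% in the first *Lhx2* window, 55.3% for *Lhx9*, 54% for *Dach1* and 65.7% for *Lmx1b*, beside a median of 52.7% over all promoters.

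Retained cells had between 186271 and 9437447 reads on genes, with a median of 2.83e+06 in autopod and 3.23e+06 in zeugopod cells. The tissue labels were checked with genes of known position. *Hoxd13*, a digit gene, had at least 5 reads in 65 of 76 autopod cells and 1 zeugopod cell. *Shox2*, a gene of the proximal limb, had them in 73 zeugopod and 0 autopod cells, where 3 cells would be a share of 3.95%. In mean log2(normalized value + 1), autopod minus zeugopod, *Hoxd13* differed by 4.16 and *Shox2* by −4.66 in NXT0143. Between NXT0072 autopod and NXT0142 zeugopod cells they differed by 8.91 and −3.88, so the *Hoxd13* contrast was smaller in NXT0143. At least 2 of the mesenchymal markers *Prrx1*, *Prrx2*, *Twist1* and *Pdgfra* were found in 63.2% of autopod and 66.7% of zeugopod cells, with 71.2% in NXT0072 and 35.3% in NXT0143 for the autopod, and 81.03% in NXT0142 and 53.8% in NXT0143 for the zeugopod. No retained cell reached the required number of markers of muscle, epithelium, endothelium or macrophages, where 3 cells would be 1.51%, and *Myod1* and *Myog* had 0 reads. Of 4 blood markers only 1 was found by a unique name in the raw count table, where 3 were required, so blood could not be assessed. Chondrogenic markers were frequent and are treated below together with the genes they moved with.

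*Lhx9* was the most widely detected of the genes. At least 5 reads, the criterion for detection used throughout, were found in 47 of 76 autopod cells (61.8%, exact binomial 95% interval 49.98 to 72.8) and in 31 of the zeugopod cells of both runs (25.2%, 17.8 to 33.8). These intervals, like all those given here, cover only the counting of cells within 1 pooled sample per tissue and not the spread between embryos. The normalized value, which is relative to spike-ins and per kilobase of transcript, ran in autopod cells from 0.105, the floor for a cell without reads, over a median of 11.6 to 2138, and in zeugopod cells from the same floor, which was also the median, to 1056. The tissues thus overlapped over most of the range. Where the gene was detected it was also at a higher level in the autopod, with a median of 253 against 23.4. The mean of log2(normalized value + 1) was 4.50 ± 4.13 in autopod cells and 1.35 ± 2.57 in zeugopod cells (SD over cells), which puts the autopod 3.16 higher.

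*Lhx2* was detected in fewer cells, and was the rarest of the genes in the zeugopod. It had at least 5 reads in 33 of 76 autopod cells (43.4%, 32.1 to 55.3) and in 9 zeugopod cells (7.32%, 3.40 to 13.4). Autopod cells ran from the floor of 0.227 over a median of 0.682 to 4531, the highest value of any of the genes, whereas the highest zeugopod cell stood at 60.9. The zeugopod median was at the floor. Mean log2 levels were 2.68 ± 3.29 in autopod and 0.49 ± 0.75 in zeugopod cells, with the autopod 2.19 higher. Even where it was detected in the zeugopod, *Lhx2* was low, with a median of 5.22 against 38.4 in autopod cells that had it.

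*Dach1* stood between *Lhx2* and *Lhx9* in the share of autopod cells. It was detected in 36 of 76 autopod cells (47.4%, 35.8 to 59.2) and 15 zeugopod cells (12.2%, 6.99 to 19.3). The normalized value went from the floor of 0.136 over a median of 0.409 to 2231 in the autopod, and from the floor, again the median, to 277 in the zeugopod. The mean log2 level was 2.80 ± 3.33 in autopod and 0.64 ± 1.45 in zeugopod cells, which differed by 2.17. Among cells with the gene the median was 43.5 in the autopod and 10.2 in the zeugopod. This order was reversed in NXT0143, with 15.4 in 5 autopod and 30.6 in 4 zeugopod cells. It was 44.7 in NXT0072 autopod and 6.96 in NXT0142 zeugopod cells.

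*Lmx1b*, the dorsal gene, was found in similar minorities of both tissues. It was detected in 13 of 76 autopod cells (17.1%, 9.43 to 27.5) and 17 zeugopod cells (13.8%, 8.26 to 21.2). Most cells were at the floor of 0.204, and the highest stood at 1045 in the autopod and 1389.6 in the zeugopod. The mean log2 levels of 1.06 ± 2.08 and 0.99 ± 2.02 differed by 0.07, far less than the spread between cells. Median levels in the cells with the gene were 11.04 in the autopod and 32.7 in the zeugopod. *Wnt7a* and *En1*, ectodermal genes of the dorsoventral axis, had at least 5 reads in 1 and 0 autopod cells and in 4 cells each of the zeugopod. Dorsal position itself was not recorded for any cell.

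**Figure D1:**
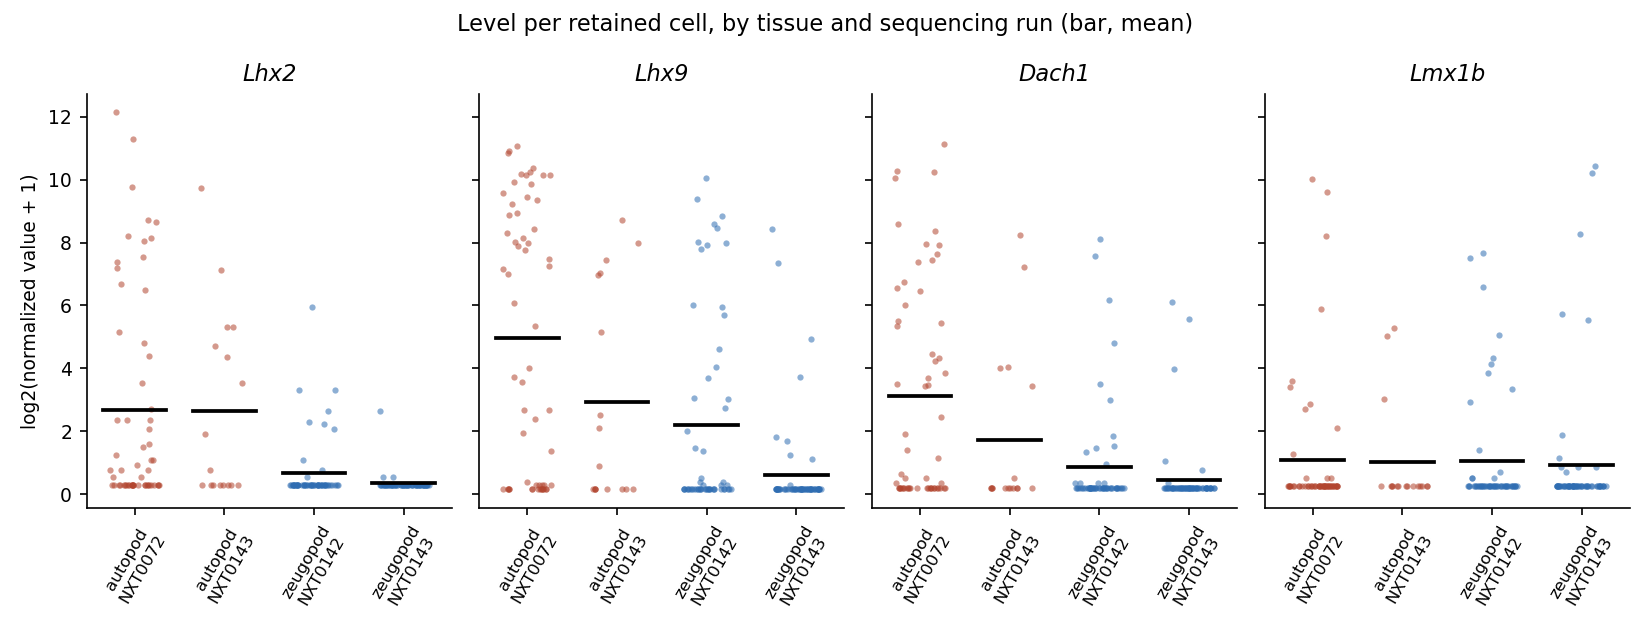
Each point is 1 retained cell, the vertical axis is log2(normalized value + 1), the columns are the 4 sets of tissue and sequencing run, and the bar is the mean of the set. *Lhx2*, *Lhx9* and *Dach1* spread up to between 8 and 12 in autopod cells with most zeugopod cells on the floor, while the *Lmx1b* means lie between 0.94 and 1.08 in all 4 sets.

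In order of mean log2 level, the genes stood as *Lhx9*, *Dach1*, *Lhx2* and *Lmx1b* in the autopod and as *Lhx9*, *Lmx1b*, *Dach1* and *Lhx2* in the zeugopod. The spread over cells, between 0.75 and 4.13, was larger than every step between neighbours in either order. *Dach1* and *Lhx2*, at 2.80 and 2.68, were the closest pair in the autopod.

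All 4 genes were placed against the whole table. A difference of at least 2 in favour of the autopod was reached by 39 of 10948 genes (0.356%), and *Lhx9*, *Lhx2* and *Dach1* were among them at places 6, 30 and 31 from the highest, whereas *Lmx1b* was at place 4149. The median difference of all genes was −0.04, and 5% of genes lay above 0.78. In the other direction 132 genes (1.21%) passed the same limit, with 0 of these 4 among them.

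Since the runs held unequal shares of the tissues, the differences were recomputed by run. NXT0143 was the only run with both tissues. The other comparison set the autopod of one run against the zeugopod of another, so tissue and run cannot be told apart there. In run NXT0143, which held 17 autopod and 65 zeugopod cells, *Lhx2* differed by 2.31, *Lhx9* by 2.34, *Dach1* by 1.29 and *Lmx1b* by 0.07. Here 196 genes (1.79%) were higher in the autopod by 2 or more, *Lhx2* and *Lhx9* among them and *Dach1* not. Between the autopod cells of NXT0072 and the zeugopod cells of NXT0142 the differences were 2.03, 2.76, 2.26 and 0.03 in the same order, and 47 genes (0.429%) passed, including *Lhx2*, *Lhx9* and *Dach1*. Across both comparisons 19 genes (0.174%) were past the limit in each, with *Lhx2* and *Lhx9* among them.

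**Figure D2:**
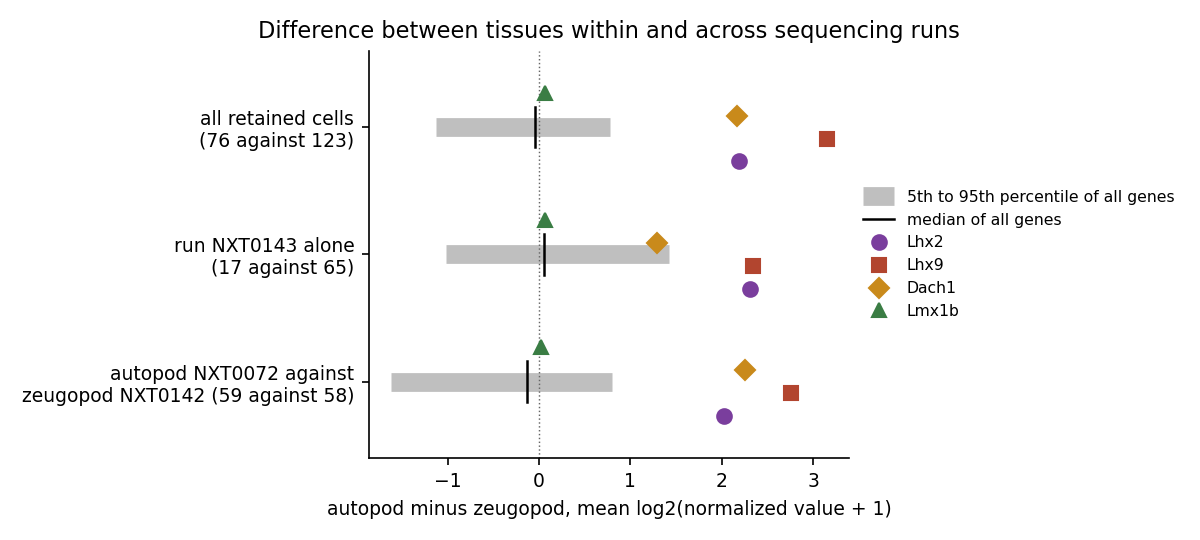
The horizontal axis is the difference of mean log2(normalized value + 1), autopod minus zeugopod, for each gene in 3 comparisons, and the grey bar spans the 5th to the 95th percentile of all 10948 genes with their median marked. *Lhx2* and *Lhx9* lie beyond the bar in each comparison, *Dach1* lies inside it in run NXT0143 at 1.29, and *Lmx1b* stays near 0.

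Shares within a tissue also moved between runs. *Lhx9* was detected in 22 of 58 zeugopod cells of NXT0142 (37.9%, 25.5 to 51.6) and in 9 of 65 of NXT0143 (13.8%, 6.53 to 24.7), and *Lhx2* in 8 and 1 of them. The former run was sequenced more deeply, with a median of 4.05e+06 reads against 2.66e+06. After thinning to 500000 reads, which left 56 and 63 cells, at least 1 *Lhx9* read was present in 35.7% and 12.7% of them. The mesenchymal marker shares moved between the same runs, and their part in the *Lhx9* shares was not tested. *Dach1* was detected in 31 of 59 autopod cells of NXT0072 (52.5%, 39.1 to 65.7) and 5 of 17 of NXT0143 (29.4%, 10.3 to 55.96), intervals that overlap. *Lmx1b* was detected in 16.9%, 17.6%, 17.2% and 10.8% of autopod NXT0072, autopod NXT0143, zeugopod NXT0142 and zeugopod NXT0143 cells. Whether the runs differed in embryos cannot be told apart from the run itself.

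The total signal of each gene came from few cells. Summed over autopod cells, *Lhx9* stood at 880 CPM (reads of the gene per 1000000 reads on genes), *Dach1* 222, *Lhx2* 102.5 and *Lmx1b* 20.3, and in the zeugopod the values were 128.2, 13.9, 1.18 and 26.8. A single cell held 29.4% of the autopod reads of *Lhx9*, 52.4% of those of *Dach1*, 48.3% of *Lhx2* and 47.4% of *Lmx1b*. Without that cell, a step chosen after seeing the data, the autopod sums were 636, 107.9, 55.1 and 11.01 on the same scale, and the zeugopod sums without their own highest cell were 106.3, 9.26, 0.444 and 14.6. *Lhx9*, *Dach1* and *Lhx2* were higher in the autopod with or without these cells, whereas the *Lmx1b* sums were lower in the autopod, opposite to the order of its mean log2 levels. The order of the *Lmx1b* sums depended on the run. They were 5.86 in autopod and 46.8 in zeugopod cells of NXT0143, and 23.4 in NXT0072 autopod and 11.6 in NXT0142 zeugopod cells.

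The distal genes occurred together in single autopod cells. All 3 of *Lhx2*, *Lhx9* and *Dach1* were detected in 21 of 76 autopod cells (27.6%, 17.99 to 39.1). They were found together in 0 zeugopod cells, where 3 cells would be a share of 2.44%. With *Lhx2*, *Lhx9* and *Dach1* in 7.32%, 25.2% and 12.2% of zeugopod cells, such cells would be rare even if the genes were independent. This 0 therefore gives no measure of co-expression there. A further 21 autopod cells had none of them, 15 had 1 and 19 had 2, whereas in the zeugopod 75 cells had none, 41 had 1 and 7 had 2. Most zeugopod cells with a single distal gene had *Lhx9*: 23 cells had *Lhx9* alone among all 4 genes, 7 had *Dach1* alone and 4 had *Lhx2* alone. In the autopod, *Lhx9* alone was found in 9 cells, *Lhx2* alone in 3 and *Dach1* alone in 1. All 4 genes were detected in 6 autopod cells (7.89%, 2.95 to 16.4), of which 4 were from NXT0072 and 2 from NXT0143.

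**Figure D3:**
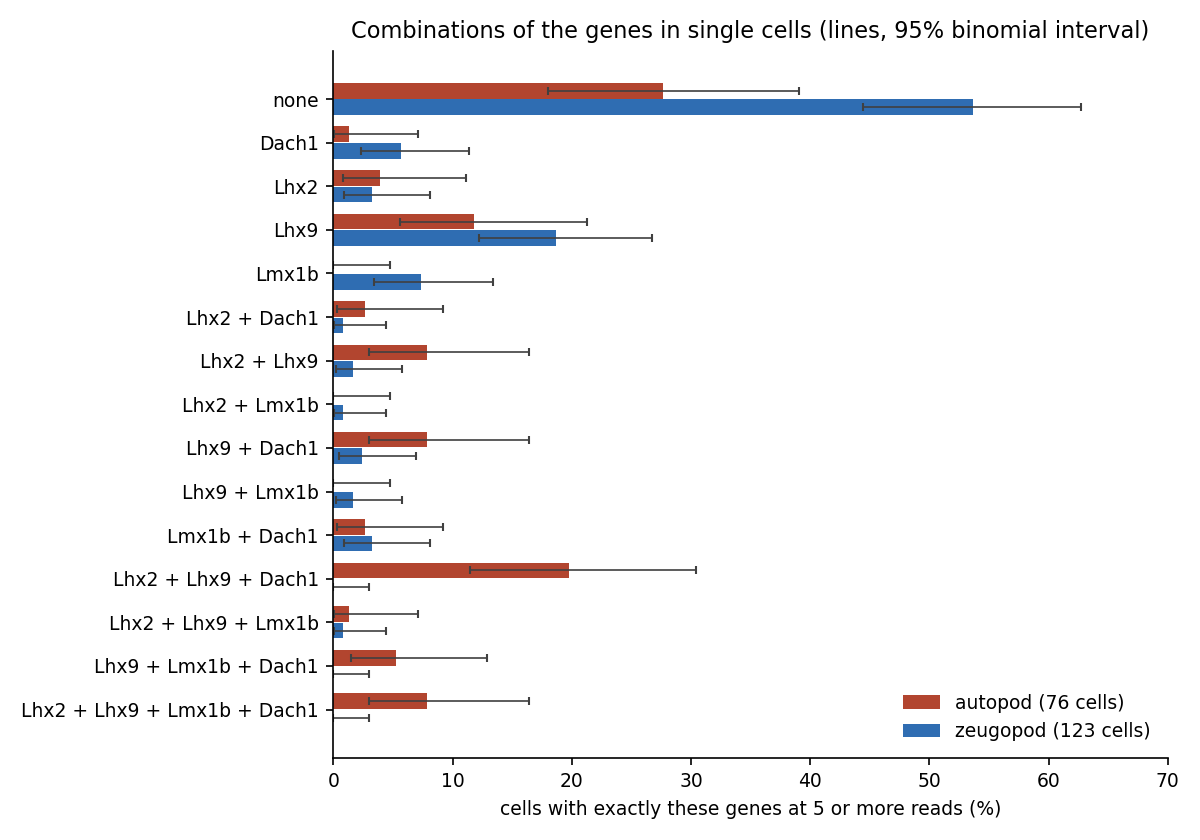
Bars give the percentage of autopod and of zeugopod cells in which exactly the named genes had at least 5 reads, with exact binomial 95% intervals. The combination of *Lhx2*, *Lhx9* and *Dach1* was the most frequent non-empty one in the autopod (15 cells). It was found in 0 zeugopod cells, where each of these genes was rarer. In the zeugopod *Lhx9* alone (23 cells) came first after cells with none of the genes (66 cells).

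Pairs of genes were then compared in both directions. *Lhx9* was detected in 28 of the 33 autopod cells with *Lhx2* (84.8%, 68.1 to 94.9) and in 19 of the 43 without it (44.2%, 29.1 to 60.1). *Dach1* was detected in 31 of 47 autopod cells with *Lhx9* (65.96%, 50.7 to 79.1) against 5 of 29 without (17.2%, 5.85 to 35.8), and in 23 of 33 with *Lhx2* (69.7%, 51.3 to 84.4) against 13 of 43 without (30.2%, 17.2 to 46.1). With the runs pooled none of these pairs of intervals overlapped. Within runs, those of *Lhx9* given *Lhx2* overlapped in both, and those of *Dach1* given *Lhx9* or *Lhx2* were apart in NXT0072 and overlapped in NXT0143, while the direction was the same in each run. In the zeugopod, *Lhx9* was found in 3 of 9 cells with *Lhx2* (33.3%) and in 24.6% of those without, and *Dach1* in 3 of 31 cells with *Lhx9* (9.68%) and in 12 of 92 without (13.04%), with intervals that overlapped widely.

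*Lmx1b* was found in autopod cells that also had distal genes. Of the 13 autopod cells with *Lmx1b*, 12 had *Dach1* (92.3%, 63.97 to 99.8), 11 had *Lhx9* (84.6%, 54.6 to 98.1) and 7 had *Lhx2* (53.8%, 25.1 to 80.8). *Dach1* was found in 24 of the 63 autopod cells without *Lmx1b* (38.1%, 26.1 to 51.2), *Lhx9* in 36 (57.1%, 44.05 to 69.5) and *Lhx2* in 26 (41.3%, 29.01 to 54.4), so that only the *Dach1* intervals were apart. Within each run the *Dach1* intervals overlapped, with 9 of 10 cells against 22 of 49 in NXT0072 and 3 of 3 against 2 of 14 in NXT0143. *Lmx1b* was detected in 0 of the 21 autopod cells without a distal gene, where 3 cells would be a share of 14.3%, in 2 of 15 with 1, in 5 of 19 with 2 and in 6 of 21 with all 3. In the zeugopod 9 of 17 cells with *Lmx1b* had none of the distal genes, and 4 had *Dach1* (23.5%, 6.81 to 49.9), beside 11 of those without *Lmx1b* (10.4%, 5.29 to 17.8).

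Rank correlations of the levels are given as descriptions, because cells of a set share a sequencing run and the pooled tissue, and differ in depth. Over the 76 autopod cells, Spearman's rho was 0.65 for *Lhx9* with *Dach1*, 0.61 for *Lhx2* with *Lhx9*, 0.46 for *Lmx1b* with *Dach1*, 0.38 for *Lhx9* with *Lmx1b*, 0.37 for *Lhx2* with *Dach1* and 0.12 for *Lhx2* with *Lmx1b*. Each gene also followed the number of genes detected in the cell, with rho between 0.20 for *Lmx1b* and 0.41 for *Lhx2*. With that number held constant the values were 0.60, 0.55, 0.42, 0.34, 0.26 and 0.04 in the same order. They were 0.56 and 0.60 for *Lhx9* with *Dach1* in NXT0072 and NXT0143, and 0.53 and 0.68 for *Lhx2* with *Lhx9*. Over all zeugopod cells the plain values lay between −0.07 and 0.14.

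**Figure D4:**
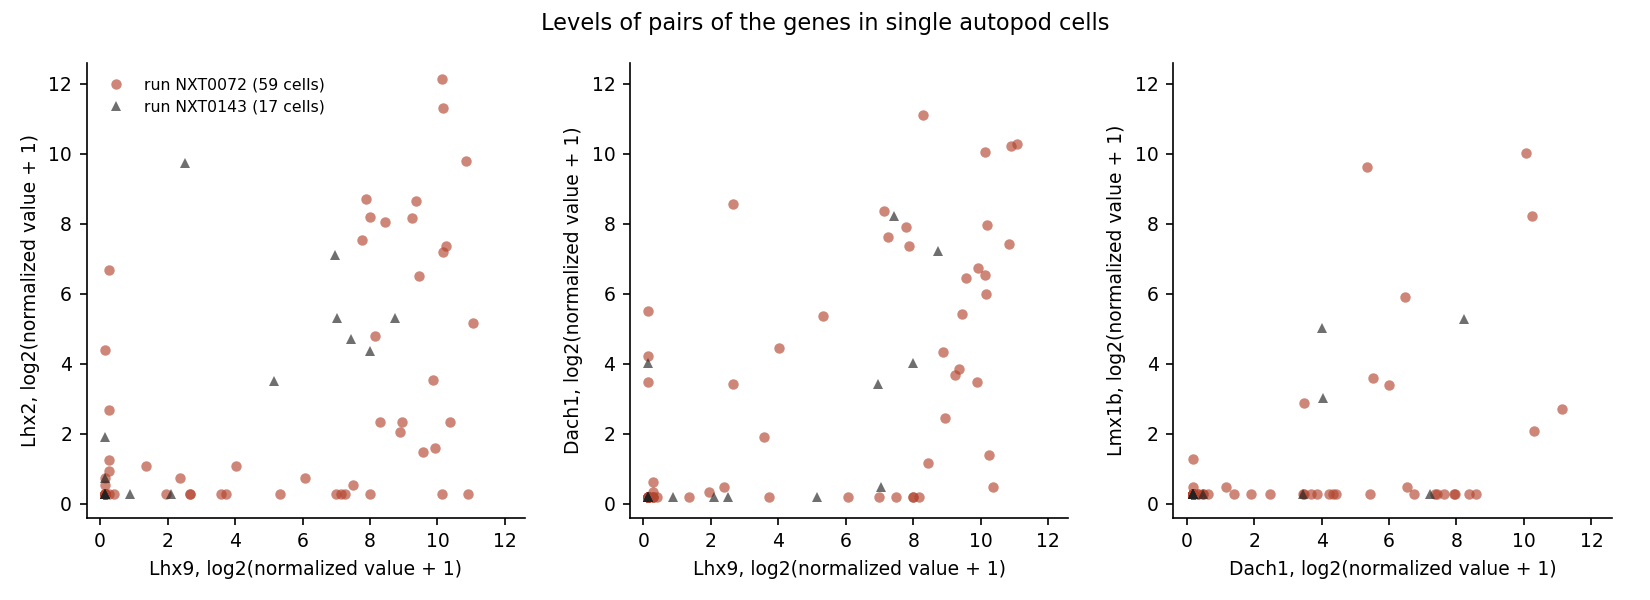
Each point is 1 autopod cell, circles from run NXT0072 and triangles from run NXT0143, and both axes are log2(normalized value + 1) of the named genes. Cells with *Lhx9* above 6 include most of the cells with high *Lhx2* or *Dach1*, and the cells with *Lmx1b* lie almost all at *Dach1* levels above 2.

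Other distal genes were compared between autopod cells with and without each gene. *Msx1*, a homeobox gene of undifferentiated distal mesenchyme, was detected in 38 of 47 cells with *Lhx9* (80.9%, 66.7 to 90.9) and 8 of 29 without (27.6%, 12.7 to 47.2), with mean log2 levels of 7.44 and 2.21. It was in 30 of 36 cells with *Dach1* (83.3%, 67.2 to 93.6) against 16 of 40 without (40%, 24.9 to 56.7), and in 26 of 33 with *Lhx2* (78.8%, 61.1 to 91.02) against 20 of 43 without (46.5%, 31.2 to 62.3), the latter pair overlapping slightly. In NXT0072 alone the intervals were apart for *Lhx9* and overlapped for *Dach1* and *Lhx2*. Counted by distal genes, *Msx1* was in 6 of 21 cells with none of *Lhx2*, *Lhx9* and *Dach1*, 7 of 15 with 1, 12 of 19 with 2 and 21 of 21 with all 3. The last group also had the most genes detected, with a median of 4177 against 3363, 3105 and 3540, and the part of that difference in these counts was not tested. Over the 76 cells rho between *Lhx9* and *Msx1* was 0.68, and 0.64 with the number of genes detected held constant.

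*Hoxa13*, which is expressed in the digit-forming region, differed most in share between cells with and without *Dach1*. It was detected in 31 of 36 autopod cells with *Dach1* (86.1%, 70.5 to 95.3) and 14 of 40 without (35%, 20.6 to 51.7). The shares were 65.96% and 48.3% for cells with and without *Lhx9*, and 72.7% and 48.8% for *Lhx2*, with overlapping intervals. *Hoxd13* was in 93.6% of cells with *Lhx9* (82.5 to 98.7) and 72.4% of those without (52.8 to 87.3), in 97.2% (85.5 to 99.9) and 75% (58.8 to 87.3) for *Dach1*, and in 90.9% and 81.4% for *Lhx2*, and each pair of intervals overlapped. Over the 76 cells rho of *Hoxd13* was 0.39 with *Lhx9* and 0.29 with *Dach1*, and 0.29 and 0.17 with the number of genes detected held constant. In NXT0072 and NXT0143 the plain values were 0.30 and 0.21 with *Lhx9*, and 0.20 and 0.33 with *Dach1*. With the number of genes detected held constant within these runs they were 0.07 and −0.07 with *Lhx9*, and −0.06 and 0.15 with *Dach1*. All 13 autopod cells with *Lmx1b* had *Hoxd13*. The single zeugopod cell with *Hoxd13* had *Lhx9* and *Dach1*.

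Chondrogenic markers as a list went with lower shares of *Lhx9* and *Dach1* in autopod cells. A cell was counted as having chondrogenic markers at 5 reads or more of at least 3 of *Sox9*, *Col2a1*, *Acan*, *Col9a1* and *Matn1*, which was met by 35 of 76 autopod cells and 38 zeugopod cells (46.1% and 30.9%). The summed level of these markers ran from 0.580 over a median of 2222 to 27802 CPM in autopod cells and from 0 over 749 to 11930 in zeugopod cells. In autopod cells with the markers *Lhx9* was detected in 13 of 35 (37.1%, 21.5 to 55.1), and in the others in 34 of 41 (82.9%, 67.9 to 92.8). *Dach1* was detected in 9 of 35 (25.7%, 12.5 to 43.3) against 27 of 41 (65.9%, 49.4 to 79.9). *Lhx2* was in 37.1% against 48.8% and *Lmx1b* in 8.57% against 24.4%, with overlapping intervals. The median number of genes detected was 3390 in the autopod cells with the markers and 3890 in the others. In both runs the direction for *Lhx9* was the same, with 12 of 27 against 26 of 32 in NXT0072 and 1 of 8 against 8 of 9 in NXT0143, and the intervals overlapped slightly in each. For *Dach1* they were apart in NXT0072 and overlapped in NXT0143. Spearman's rho with *Col2a1*, which encodes the main collagen of cartilage, was −0.41 for *Lhx9*, −0.40 for *Dach1*, −0.24 for *Lmx1b* and −0.08 for *Lhx2* over the 76 autopod cells. With *Sox9*, the factor that sets up cartilage fate, it was −0.06, −0.09, 0.10 and 0.05 in the same order, so that the markers of the list did not run alike.

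In the zeugopod the intervals by chondrogenic markers overlapped for every gene. *Lhx9* was detected in 28.9% (15.4 to 45.9) of cells with chondrogenic markers and 23.5% (15 to 33.97) of the others, *Dach1* in 10.5% and 12.9%, *Lmx1b* in 13.2% and 14.1%, and *Lhx2* in 13.2% (4.41 to 28.1) and 4.71% (1.30 to 11.6). *Sox9*, 1 marker of the list, went with *Lhx9* in run NXT0142. There *Sox9* was in 20 of 22 cells with *Lhx9* (90.9%, 70.8 to 98.9) and 16 of 36 without (44.4%, 27.9 to 61.9), with rho at 0.44. *Col2a1*, of the same list, was in 20 of 22 and 34 of 36 of these cells, with rho at 0.08. In NXT0143 *Sox9* was in 5 of 9 cells with *Lhx9* and 38 of 56 without, with rho at −0.07. Between autopod and zeugopod cells without the markers the differences were 2.72 for *Lhx2*, 4.65 for *Lhx9*, 3.31 for *Dach1* and 0.53 for *Lmx1b*. The difference of *Dach1* was thus over 1.5 times that over all cells. That of *Lmx1b* over all cells, at 0.07, was too near 0 for a ratio. Among cells with the markers the tissues were closer, with mean log2 levels of 2.17 in autopod and 0.71 in zeugopod cells for *Lhx2*, 2.85 and 1.54 for *Lhx9*, 1.49 and 0.68 for *Dach1*, and 0.43 and 0.83 for *Lmx1b*. No gene differed by 2 there, and *Lmx1b* was the lower one in the autopod. At least 2 of the tendon markers *Scx*, *Tnmd* and *Tnc* were found in 17 zeugopod and 0 autopod cells. Of these 17 cells, 4 had *Lhx9*, 2 had *Lhx2*, 1 had *Dach1* and 1 had *Lmx1b*.

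**Figure D5:**
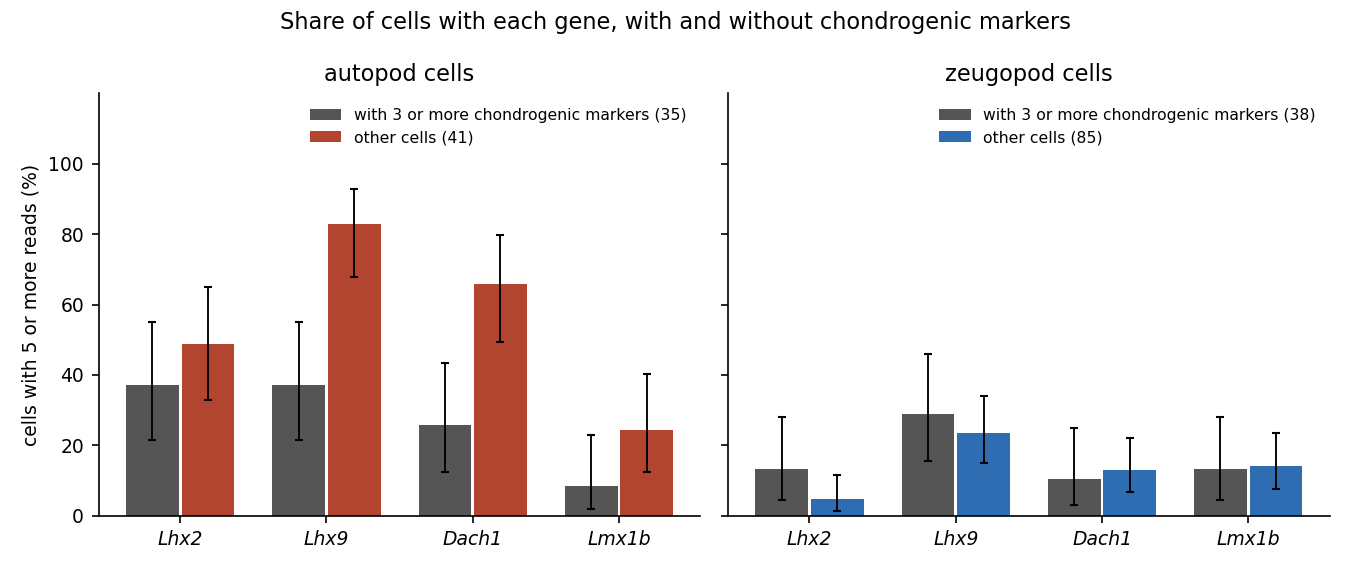
Bars show the percentage of cells with at least 5 reads of each gene, separately for cells with at least 3 of the 5 chondrogenic markers and for the remaining cells, with exact binomial 95% intervals and cell numbers in brackets. The intervals of *Lhx9* and of *Dach1* are apart in the autopod, and those of every gene overlap in the zeugopod.

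Zeugopod cells with *Lmx1b* or *Dach1* were mostly *Shox2* cells. *Shox2*, required for the proximal long bones, was detected in 14 of 17 zeugopod cells with *Lmx1b* (82.4%, 56.6 to 96.2) and 59 of those without (55.7%, 45.7 to 65.3). For *Dach1* it was 13 of 15 (86.7%, 59.5 to 98.3) against 60 cells without it (55.6%, 45.7 to 65.1), and for *Lhx9* 14 of 31 (45.2%, 27.3 to 63.97) against 59 of 92 (64.1%, 53.5 to 73.9). Each pair of intervals overlapped.

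Related genes were followed as lists. Of the other LIM-homeodomain genes listed (9 genes), only *Lhx5* is in the normalized table, with a difference of −0.01, and the rest of those in the raw table were detected in at most 5 cells of either tissue. Of 10 LIM cofactor genes 8 were in the table, and *Lmo4*, which encodes a LIM-only protein, was the only one past 2, at 2.04 in favour of the autopod. It was detected in 54 autopod and 58 zeugopod cells, and differed by 1.53 in NXT0143 and 1.54 in the other comparison of runs. *Ldb1*, the bridging cofactor of LIM-homeodomain factors, was detected in 32 autopod and 38 zeugopod cells and differed by 0.94, and *Ldb2* by −1.10. The median of the list was 0.02, beside −0.04 for all genes. Among relatives of *Dach1*, *Skil* differed by 1.53, with 2.83 in NXT0143 and 0.52 in the other comparison of runs, and *Dach2* was detected in 4 autopod and 5 zeugopod cells.

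Lists of position and signalling genes gave the frame for these values. All 7 distal genes listed (*Hoxd13*, *Hoxd12*, *Hoxa13*, *Msx1*, *Msx2*, *Wnt5a* and *Jag1*) were higher in the autopod by 2 or more, from 2.37 for *Jag1* to 7.88 for *Hoxd13*, with a median of 2.96. Over all retained cells *Lhx9* at 3.16 lay above that median and above *Msx2* (2.97), and *Lhx2* and *Dach1* lay below *Jag1*. These places did not hold by run. In NXT0143 *Lhx9* (2.34) lay below *Msx2* (2.53), and *Lhx2* (2.31) lay above *Jag1* (2.27) with *Dach1* (1.29) below it. In the other comparison of runs *Lhx9* (2.76) lay below *Msx2* (3.07). There *Dach1* (2.26) lay above *Jag1* (2.23) with *Lhx2* (2.03) below it. Of 6 proximal genes 3 were in the table, and *Shox2* (−4.29) and *Meox2* (−3.60) passed in favour of the zeugopod. Of 7 genes that respond to FGF signals, 6 were in the table and 0 passed, where 0.356% and 1.21% of all genes did in the respective directions, with a median of −0.08. *Spry2*, an FGF feedback inhibitor, stood at −1.53 over all cells, at 0.28 in NXT0143 and at −2.60 in the other comparison of runs, and its relative *Spry4* at −1.19. Several genes of these lists were chosen as known markers of the tissues, so their counts are not independent evidence of direction.

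Finally, genes with the most similar pattern across cells were sought among 8340 genes found in at least 10% of retained cells. The measure was the partial rank correlation given the number of genes detected. It was averaged over the 4 sets of tissue and run (199 cells), weighted by their cells. The genes listed as most similar were positive in each set. The largest set, zeugopod NXT0143 with 65 cells, had *Lhx2* at 5 or more reads in only 1 cell, which limits the *Lhx2* list. The correlations were weak and are given as values only. *Dcaf13* came first for *Lhx2* (0.29), *Pfdn2* for *Lhx9* (0.30), *Nop2* for *Lmx1b* (0.31) and *Basp1* for *Dach1* (0.27), where 5% of genes lay above 0.12, 0.13, 0.15 and 0.14. Next came *Smc1a*, *B4gat1*, *Igbp1* and *Gna12* for *Lhx2*, *Hprt*, *Lef1*, *Josd1* and *Arhgef11* for *Lhx9*, and *Bex1*, *Taf5*, *Nrp2* and *Abcf1* for *Lmx1b*. For *Dach1*, *Mrps24*, *Sfxn1* and *Yme1l1* were also among the most similar genes. Among all genes, *Lhx9* was at place 59 for *Lhx2* (0.19), *Lhx2* at place 82 for *Lhx9* (0.19) and *Lmx1b* at place 21 for *Dach1* (0.23). *Lmx1b* was at place 3439 for *Lhx2*, with 0.01.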

How the data were processed

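GFP-sorted single cells were lysed in the chambers of a Fluidigm C1 chip, and their polyadenylated RNA was amplified with the SMARTer kit. The authors mapped reads of 75 bases uniquely to mm10 with Bowtie2 in local mode and deposited raw counts on Ensembl genes of GRCm38. The deposited normalized signal is the count scaled by spike-in size factors and divided by gene length in kilobases. With 1 added before the division, a gene without reads sits at a floor. The study centred the size factors by batch of origin. Whether that batch is the sequencing run is not given in the sources used here. Strand use in counting is not given in the sources used here. The sources used here give the number of embryos in more than one way. From these files, means of log2(normalized value + 1), shares of cells with at least 5 reads with exact Clopper-Pearson 95% intervals, CPM and rank correlations were computed in Python 3.11.15 with scipy 1.17.1. A difference of 2 was used as the limit, the smallest log fold of the study's own analysis. Cells were thinned to 500000 reads with seed 42. For counts of 0, the share of 3 cells was taken as the limit. Depth ranged from 186271 to 9437447 reads on genes per retained cell.

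Alternatives comprised CPM, size factors from pools of cells (scran 1.30.0), pseudocounts of 0.1 and 10, other detection criteria and thinning. Single runs, all captured cells as CPM, and cells without chondrogenic markers were also used. Leaving out the cell with the most reads was added after seeing the data. The calculations were tested on simulated data. No doublet caller was run. Spike-in rows were not used here.

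The genes and the lists were chosen with earlier results of these data known. Named genes were the 4 genes, the 5 most like each by the partial rank correlation, and the genes of lists of LIM-homeodomain genes, LIM cofactors, *Dach1* partners, distal, proximal, FGF response and dorsoventral ectoderm genes, named where a sentence turns on them. Some items of these lists and of the similar genes are not reported here, nor is the count over the *Dach1* partners. Marker lists were chondrogenic, muscle, tendon, epithelium, endothelium, blood, macrophage and mesenchyme.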

Additional observations from a re-analysis of the deposited data

Results flagged for a closer look

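Reads of the genes were also present in cells that the authors did not retain, 20 from the autopod and 6 from the zeugopod, which enter no comparison above. In these autopod cells *Lhx9* summed to 6271 CPM, from 22081 reads of which 22051 lay in 1 cell, and 3 of the 20 cells had at least 5 reads. *Lhx2* summed to 32.4 CPM in the same cells, with 1 cell at 5 reads or more. In the zeugopod cells *Lhx9* summed to 5.92 CPM, from 7 reads in 1 cell. *Lmx1b* had 0 reads in all of these cells, and *Dach1* had 2 in the autopod and 3 in the zeugopod. There is no untreated or control sample to set these values against.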

How the results depend on the processing

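No paired analysis was possible because no test was run and the labels number no replicates. *Lhx2*, *Lhx9* and *Dach1* stayed higher in the autopod under every alternative run. With a pseudocount of 0.1 the differences were 2.92 for *Lhx2*, 4.08 for *Lhx9*, 0.10 for *Lmx1b* and 2.95 for *Dach1*, and with 10 they were 1.22, 1.99, 0.024 and 1.18. Genes past 2 then numbered 71 and 8 in favour of the autopod and 221 and 32 in favour of the zeugopod. A limit of 1 gave 310 and 685, and CPM gave 205 for the zeugopod. Thinned cells gave 2.42 for *Lhx2* and 3.76 for *Lhx9*, and CPM gave 3.70 for *Lhx9*. All captured cells, computed as CPM, gave 1.91 for *Lhx2* and 1.98 for *Dach1*, both under the limit of 2. CPM over retained cells gave 2.36 and 2.53 for the same genes. Run NXT0143 alone gave 2.34 for *Lhx9* and 1.29 for *Dach1*, and the other run comparison 2.76 for *Lhx9*. Without cells with chondrogenic markers, the split given above, the values were 2.72 for *Lhx2*, 4.65 for *Lhx9*, 0.53 for *Lmx1b* and 3.31 for *Dach1*. Cells with tendon markers were kept unless they also had chondrogenic markers. The small *Lmx1b* difference changed sign, at −0.0060 with CPM, −0.0049 with scran size factors, −0.0019 thinned and −0.14 with CPM in all captured cells. It was 0.028 between NXT0072 and NXT0142, so no direction is given for it. The share of autopod cells with *Lhx2* was 57.9% at 1 read, and that with *Dach1* 29.4% in NXT0143. Of the 5 genes most like each gene, 3 to 4 stayed with plain correlations and 1 to 3 with CPM. The causes were not tested. With 17 autopod cells in NXT0143 and 1 pooled sample per tissue, the spread between embryos cannot be given.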
